A study of Mus musculus with 2 samples.

Results

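A group of 846 mouse liver cells, selected on the transcripts of 5 receptor, granzyme and egress genes, is described against the other γδ T cells of the same library. The cells were chosen by a count rule. Of the 8658 liver barcodes, 8075 had 800 to 4000 detected genes and at most 6% mitochondrial UMIs (unique molecular identifiers, which count captured transcripts) and were kept. A kept cell was a member when the UMIs of Klra6, Klra7, Klrg1, S1pr5 and Gzmk summed to at least 3, those of Il17a, Tmem176a, Tmem176b and Ccr6 to at most 2, and those of Lyz2, C1qa, C1qb and C1qc to at most 3. Members were 10.5% of kept liver cells (exact binomial 95% interval 9.82 to 11.2). The other 7229 kept liver cells served as the comparison, and 6192 of them were also within both upper limits.

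The study sorted CD3e+ TCRγ/δ+ cells from the liver and thymus of untreated wild type C57BL/6J mice that were 8 weeks old and sequenced 1 droplet library per organ with a 3′ kit. The study names several mice, and no barcode is tied to an animal. With 1 liver library there are no replicates, so no difference below was tested between animals. Levels are UMIs summed over the cells of a group, per 1000000 of the group's UMIs (CPM), and the intervals in parentheses are 95% limits of counting error only. Members held 2718380 UMIs in all and a median of 2859.5 per cell, against a median of 2726 in the other kept cells. The liver and thymus libraries shared 60 barcode sequences, 8 of them in members.

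Klra genes encode the Ly49 receptors, lectin-like proteins that natural killer (NK) cells and some T cells carry and that bind class I major histocompatibility molecules. Klrg1 is an inhibitory receptor for cadherins that marks T and NK cells late in effector differentiation, S1pr5 is a sphingosine-1-phosphate receptor with which NK cells leave tissues, and Gzmk is a granzyme. Cx3cr1, the fractalkine receptor of circulating effector cells, and Zeb2, a transcriptional repressor of late effector differentiation, often accompany them and were not used by the rule.

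The marker genes did not contribute equally. Klra7 was detected in 791 members (93.5%) and supplied 78.1% of all marker UMIs, and in 391 members (46.2%) it was the only marker gene detected. Klra6 was detected in 397 members (46.9%). Klrg1 was detected in 107 (12.6%), S1pr5 in 77 (9.10%) and Gzmk in 50 (5.91%). For 626 members (74.0%) the sum would have been below 3 without Klra7, against 12 without Klrg1, 6 without S1pr5 and 11 without Gzmk. One marker gene alone was detected in 421 members (49.8%), and all 5 in 3 members. The rule thus chose mainly Klra7 cells, and a name built on Klrg1, S1pr5 and Gzmk holds for a minority of them. They are called Klra7-led cells below.

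**Figure D1:**
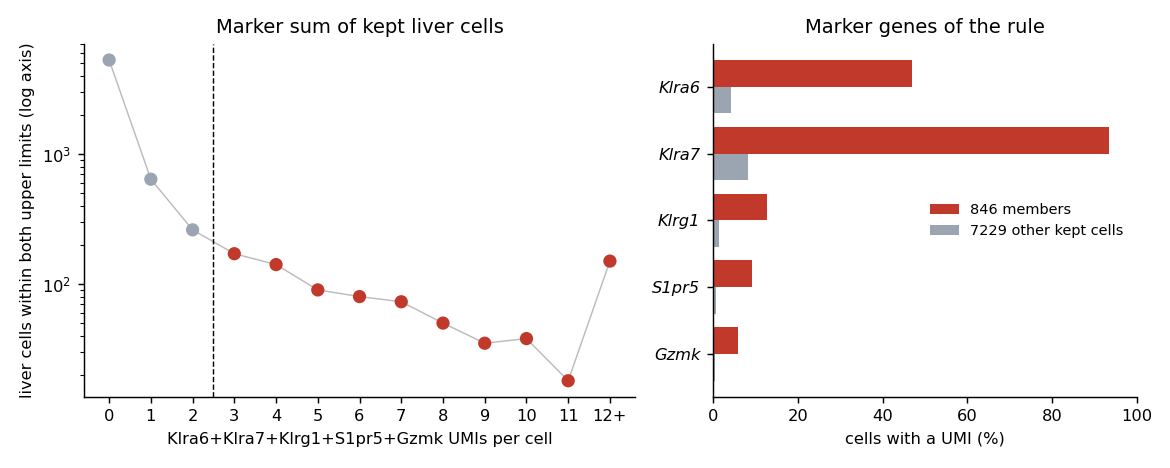
Left, number of kept liver cells within both upper limits (log axis) by their summed UMIs of the 5 marker genes, with members in red and the dashed line at the limit. Right, percent of cells with at least 1 UMI of each marker in the 846 members and in the 7229 other kept cells. The cell number runs on without a gap across the limit, from 261 cells at a sum of 2 to 171 at a sum of 3, and Klra7 leads among members at 93.5%.

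The median member had 5 UMIs of Klra7 (lowest 0, highest 37) and a marker sum of 6 (lowest 3, highest 51). The median UMI number of Klra6, Klrg1, S1pr5 and Gzmk was 0. The limit cut through a continuous range. Klra7 was detected in 84.8% of the 171 members with a sum of 3 and in 70.5% of the 261 cells with a sum of 2. Klrg1 was detected in 4.68% and 8.05% of these cells, Zeb2 in 1.75% and 4.60%. A further 24 kept cells had a sum of 3 or more and were left out by an upper limit.

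Free RNA in droplets gives a few UMIs to cells that do not express a gene, and deeper cells reach 3 UMIs more easily, so shares were also taken after each cell was thinned to 1500 UMIs. These genes chose the members, so the gaps between members and non-members below were fixed by the rule and are given as a description. Klra7 was then detected in 86.4% of members (83.9 to 88.6), against 6.53% of the 2327 other cells rich in Tyrobp and Gzmb transcripts, 5.56% of cells with Tcf7, Lef1 and Sox4 transcripts, 4.19% of cells with IL-17-program transcripts and 2.73% of cells with Cd28 and Socs2 transcripts. The last 3 classes were non-member cells with at least 2 UMIs of Tcf7, Lef1 and Sox4, with more than 2 of the rule's 4 IL-17-program genes, and with at least 2 of Cd28 and Socs2, the first and the last also low in Tyrobp and Gzmb. The median UMI number per cell before thinning was 2663 in the Tyrobp and Gzmb cells, 2653 in the Tcf7, Lef1 and Sox4 cells, 2904.5 in the IL-17-program cells and 2722.5 in the Cd28 and Socs2 cells. Klrg1 was detected in 6.74% of thinned members (5.14 to 8.64), against 0.968% of the IL-17-program cells. S1pr5 was detected in 5.32% of members and at most 0.556% of the 4 classes, and Gzmk in 3.78% of members and at most 0.559% of them.

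Klra6, Klra7 and Klrg1 lie on mouse chromosome 6 on the minus strand. In the GENCODE annotation of mm10, Klra6 spans chr6:130013033-130026954, Klra7 chr6:130218605-130233322 and Klrg1 chr6:122270596-122282882. Ly49 genes are related paralogs, and counting can split reads where their sequences match. Of 410 windows of 91 bases over the last 500 transcript bases, Klra7 shared 40 (9.76%) with the pseudogene Klra13-ps and Klra6 shared 0 with the 13 other Klra genes. Only shared windows in those 500 bases were counted, so the uncertainty in the values of single Klra genes was not measured.

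The 2 kinds of marker were then used one at a time, so that the other kind and Cx3cr1 and Zeb2 could be read as genes the choice had not used. Within both upper limits, 818 cells had 3 or more Klra6 and Klra7 UMIs and 62 cells, 0.768% of kept liver cells (0.589 to 0.983), had 3 or more Klrg1, S1pr5 and Gzmk UMIs. Both applied to 41 cells, 777 met only the Klra limit and 21 only the other, and 7 members reached a sum of 3 through neither alone.

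Each choice was accompanied by more of the genes it had not used. In the 818 Klra cells, S1pr5 was at 40.6 CPM (33.2 to 49.1) against 2.49 (1.82 to 3.33) in the 6220 cells below the limit, a ratio of 16.3 (11.4 to 23.6). Klrg1 was at 51.3 CPM (43.0 to 60.7) against 7.92 (6.67 to 9.33), a ratio of 6.48. Gzmk had the smallest ratio of the 5 genes, 3.27 (2.31 to 4.57). Even so, only 10.4% of the 818 cells held a Klrg1 UMI and 8.31% an S1pr5 UMI. Cx3cr1 was 14.7-fold higher (9.94 to 22.1) and Zeb2 11.7-fold higher (9.21 to 15.0).

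The 62 cells chosen on Klrg1, S1pr5 and Gzmk held more Ly49 transcripts of the same 2 genes. Klra6 was at 546 CPM (457 to 648) against 57.4 (54.1 to 60.7) in the 6976 cells below that limit, and Klra7 at 1693 (1532 to 1866) against 256 (249 to 263). A Klra7 UMI was present in 64.5% of the 62 cells and in 18.2% of those below the limit. Klra1, which encodes Ly49A, did not share this. It was at 62.5 CPM (35.0 to 103) against 72.5 (68.8 to 76.3), a ratio of 0.863 (0.482 to 1.43), and 60.0% of its UMIs in the 62 cells lay in a single cell. Cx3cr1 was at 117 CPM (77.6 to 169) against 4.60, and Zeb2 at 292 CPM (228 to 369) against 10.96. A Zeb2 UMI was found in 35 of the 62 cells (56.5%) and a Cx3cr1 UMI in 23 (37.1%), against 13.7% and 7.33% of all members. At 1500 UMIs per cell the shares with Zeb2 were 35.5% of the 62 cells, 8.75% of members and 0.228% of the Cd28 Socs2 cells, and those with Cx3cr1 were 19.4%, 4.37% and 0.342%.

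**Figure D2:**
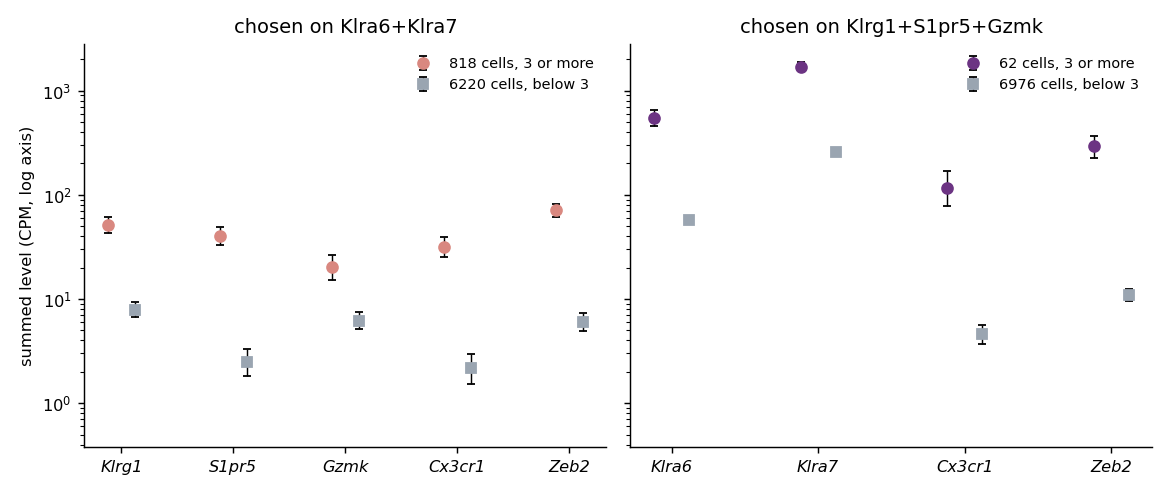
Summed levels (CPM, log axis, 95% counting intervals) of genes that did not choose the cells. Left, 818 cells with 3 or more Klra6 and Klra7 UMIs (circles) and 6220 cells below (squares). Right, 62 cells with 3 or more Klrg1, S1pr5 and Gzmk UMIs (circles) and 6976 cells below (squares). In both panels the circles lie above the squares for each gene drawn, from 3.27-fold for Gzmk on the left to 26.6-fold for Zeb2 on the right.

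Against all other kept liver cells, 104 of the 9672 other genes with 50 or more UMIs (1.08%) were at least 2-fold higher in members and 569 (5.88%) at least 2-fold lower. Cx3cr1 was at 32.7 CPM in members against 4.10 (log2 ratio 3.00, 2.55 to 3.44) and Zeb2 at 75.8 against 11.1 (2.77). Lat2, an adaptor of immune receptors, was at 169 CPM against 88.7 (0.93), and Irf8, an interferon regulatory factor, at 107 against 58.3 (0.87). Far below stood Cd163l1, a scavenger receptor of IL-17-program γδ T cells, at 9.20 CPM against 108 (-3.56), the neutrophil chemokine Cxcl2 at 23.2 against 215 (-3.21, but 0.083 against cells within both limits), Ly6a at 19.9 against 111 (-2.48), Ccr2 at 22.8 against 100.05 (-2.13) and Il7r at 34.2 against 136 (-1.99).

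The rule's upper limits by themselves keep out cells with IL-17-program and myeloid transcripts, so the 6192 other cells within both limits are used for the rest of this comparison. There, 101 of 9244 genes (1.09%) were at least 2-fold higher and 286 (3.09%) at least 2-fold lower, and the median log2 ratio over all genes was -0.0050.

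Among genes at 100 CPM or more, the largest log2 ratios were those of the histone gene Hist1h2ap, the Ly49 receptor gene Klra1 and Gzma. Hist1h2ap was at 148 CPM in members against 28.1 (log2 ratio 2.40, 2.21 to 2.59), but 20.6% of its UMIs in members came from a single cell. Of its 403 UMIs in members, 264 lay in the 62 cells with 3 or more Klrg1, S1pr5 and Gzmk UMIs. In the 777 members that met only the Klra limit it was at 56.1 CPM. There it was at 24.2 CPM when cells with 2 or more UMIs of Mki67, Top2a and Birc5 were left out. Klra1 was at 181 CPM against 55.9 (1.70, 1.54 to 1.86). Gzma, a granule protease, was at 5701 CPM (5611 to 5791) against 2151 (1.41, 1.38 to 1.43) and was detected in 77.0% of members. Ccl5, a chemokine for T cells and monocytes, was at 29955 CPM against 14359 (1.06, 1.05 to 1.07) and was detected in every member. The other genes of this group were Lag3 (1.18), an inhibitory receptor, Car2 (1.15), Vim (1.13), an intermediate filament gene, Lgals1 (1.11), which encodes galectin-1, Itgax (1.09), the integrin chain CD11c, Itga4 (0.94), Cd244 (0.84) and Pycard (0.83).

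**Figure D3:**
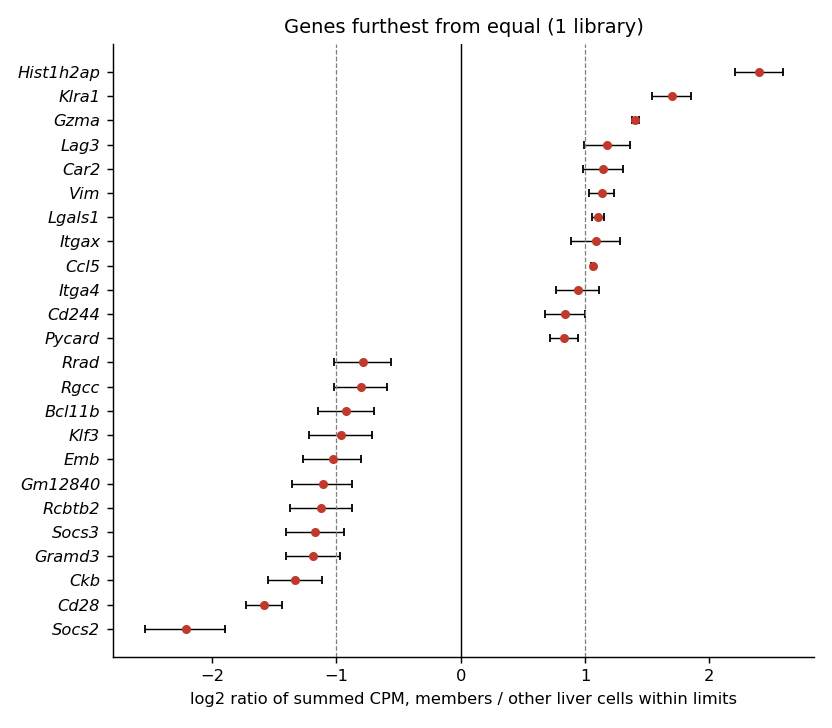
The 12 genes furthest above and the 12 furthest below equality among genes with 50 or more UMIs and at least 100 CPM in the higher group. Points are log2 ratios of summed CPM, members over the 6192 other liver cells within both limits, bars are 95% counting intervals, and dashed lines mark 2-fold. Socs2 lies furthest to the left at -2.21 and Hist1h2ap furthest to the right at 2.40.

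On the lower side the largest differences were those of Socs2 and Cd28. Socs2, a suppressor of cytokine signalling, was at 30.5 CPM in members against 141 (log2 ratio -2.21, -2.54 to -1.89), and Socs3 at 59.6 against 134 (-1.17). Cd28, a costimulatory receptor, was at 148 CPM against 442 (-1.58, -1.73 to -1.44). Ckb (-1.33), Gramd3 (-1.19), Rcbtb2 (-1.12), Gm12840 (-1.11) and Emb (-1.03) were also past 2-fold, and Klf3 (-0.96), Bcl11b (-0.92), Rgcc (-0.80) and Rrad (-0.79) were not.

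Among NK receptors, 4 Ly49 genes outside the rule had enough UMIs. Their median log2 ratio was 0.54, and 1 of them, Klra1, was past 2-fold. Klra9 was at 239 CPM against 186, and Klra5, which encodes Ly49E, was level at 297 against 299 (-0.0080, -0.12 to 0.099). Of 11 NKG2, CD94 and NKR-P1 genes, 1 was at least 2-fold higher and 1 at least 2-fold lower, with a median of 0.26. Klrb1a was the first, at 63.3 CPM against 15.8 (2.00), and Klrb1b the second (-1.003). Klrd1, the CD94 chain, was at 1583 CPM against 1225, Klrb1c (NK1.1) at 461 against 356, and Klrc1, which encodes the NKG2A chain, was lower at 453 against 674 (-0.57).

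Of 14 other NK receptors and adaptors, 0 passed 2-fold, and their median log2 ratio was 0.34. Ncr1 (NKp46) was at 182 CPM against 118 (0.63, 0.49 to 0.77). Of 20 cytotoxic granule genes, Gzma alone passed 2-fold, and the median was 0.29. Gzmb was at 3822 CPM against 2960 (0.37) and Nkg7, a granule membrane protein, at 3695 against 2682 (0.46).

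Of 11 chemokine and cytokine genes, 2 were at least 2-fold higher and 1 at least 2-fold lower. Ccl9 had the largest ratio of the list, at 65.5 CPM (56.2 to 75.8) against 2.12 (log2 ratio 4.95, 4.44 to 5.50), although its UMIs lay in only 45 members (5.32%). Ccl5 was the other. Il4, a type 2 cytokine, was at 0.736 CPM against 18.8 (-4.67, -7.72 to -2.81), from 2 UMIs in members. Ccl3 was at 875 CPM against 569 and Ccl4 at 4827 against 3188.

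Circulation and residence genes differed gene by gene rather than as lists. Of 20 egress and circulation genes, 2 were at least 2-fold higher and 3 at least 2-fold lower, with a median of -0.13. The higher genes were Cx3cr1, at 32.7 CPM (26.3 to 40.3) against 1.84 (log2 ratio 4.16, 3.56 to 4.78), and Itgax. Ccr7, the lymph node homing receptor, was at 4.78 CPM against 38.6 (-3.01), and Ly6c1 at 0.736 against 13.3 (-4.18, -7.23 to -2.31), from 2 UMIs in members. S1pr1, the egress receptor of naive T cells, was at 18.8 CPM against 35.1 (-0.90). Of 16 tissue residence genes, 1 was at least 2-fold higher, Itgae, which encodes the CD103 chain, at 16.2 CPM against 5.74 (1.497, 0.95 to 2.02), and 1 at least 2-fold lower, Cxcr4 (-1.16). Cxcr6 was at 350 CPM against 477 (-0.45).

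Of 15 effector transcription factors, Zeb2 alone passed 2-fold, at 75.8 CPM (65.8 to 86.9) against 4.90 (log2 ratio 3.95, 3.58 to 4.33). Tbx21, which encodes T-bet, was at 93.4 CPM against 80.7 (0.21), and Eomes at 15.5 against 9.58 (0.69). Of 11 memory and precursor factors, 3 were at least 2-fold lower, among them Lef1 at 37.1 CPM against 90.7 (-1.29) and Myb (-2.98, -6.04 to -1.09), which had 2 UMIs in members. Of 10 factors related to PLZF and ThPOK, 5 were at least 2-fold lower, with a median of -0.97. Rora was at 38.3 CPM against 90.8 (-1.25), while Ikzf2, which encodes Helios, was higher at 171 against 112 (0.61).

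Of 22 cytokine and costimulatory receptor genes, 0 were at least 2-fold higher and 8 at least 2-fold lower. Il7r, which encodes the interleukin-7 receptor, was at 34.2 CPM (27.6 to 41.9) against 99.5 (log2 ratio -1.54, -1.86 to -1.24), Icos at 16.2 against 59.0 (-1.87) and Cd40lg, the ligand of CD40, at 6.62 against 53.0 (-3.00). Of 13 cell cycle genes, 7 were at least 2-fold higher, with a median of 1.40. Stmn1 was at 92.7 CPM against 19.0 and Birc5, a mitotic gene, at 16.2 against 2.23. Of the members, 19 (2.25%) held 2 or more UMIs of Mki67, Top2a and Birc5, against 24 (0.388%) of the other cells within limits.

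Other lists had few genes past 2-fold. Of 20 galectin, S100, annexin and cytoskeleton genes, 3 were higher and 1 lower, with Lgals3 at 77.3 CPM against 34.4 and Anxa1 at 8.09 against 19.0. Of 8 inhibitory receptors, 1 was higher, Lag3, and 3 lower. The T cell receptor signalling genes had 0 of 14 higher and 1 lower, Themis (-2.26). Of 10 survival genes and of 16 immediate-early and heat shock genes, 0 passed 2-fold in either direction, with medians of 0.0010 and -0.33. Of 18 interferon-induced genes, 0 were higher and 2 lower. The IL-17 genes outside the rule had 7 of 8 lower. The rule's upper limit on IL-17-program UMIs applied to both groups of this comparison, and the reason for the difference was not tested.

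Members were not uniform. The 62 cells with 3 or more Klrg1, S1pr5 and Gzmk UMIs were set beside the 777 members chosen on Klra6 and Klra7 alone, and the same rule for naming genes was extended to this comparison after its values had been seen. Of 4779 genes, 183 (3.83%) were at least 2-fold higher in the 62 cells and 503 (10.5%) at least 2-fold lower. With only 239825 UMIs in the 62 cells, single cells weigh on low genes. The 62 cells were themselves mixed. In the 41 that also met the Klra limit and the 21 that did not, Ly6c2 was at 732 and 2167 CPM, Tyrobp at 583 and 141 and Ccl9 at 330 and 0. Gzma, at 17447 and 9759 CPM, and Ccl5, at 61121 and 40300, were above the 777 cells in both.

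Among the genes named, Lgals1, Gzma, Ccl5, Zeb2 and Cx3cr1 were higher in the 62 cells, and Gzmb was lower. Lgals1 was at 5225 CPM (4939 to 5522) against 1285 in the 777 cells (log2 ratio 2.02, 1.93 to 2.12) and was detected in all 62 cells. Gzma was at 14711 CPM against 4820 (1.61) and Ccl5 at 53710 against 27666 (0.96), while Gzmb was at 2135 against 3982 (-0.90, -1.03 to -0.77). Zeb2 was at 292 CPM against 53.3 (2.45, 2.01 to 2.88) and Cx3cr1 at 117 against 24.4 (2.26, 1.56 to 2.93). Lgals3 was at 317 CPM against 54.5, Mt1, a metallothionein gene, at 204 against 35.0, and Vim at 917 against 370. Ccl9 was at 213 CPM against 50.03, in 10 of the 62 cells. Ly6c2, a surface protein of memory T cells, was at 1243 CPM against 282 (2.14), and at 779 against 283 (1.46) when cells with a Cd8b1 UMI were left out.

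Cell cycle genes also led on the higher side. Hist1h2ap was at 1101 CPM against 56.1, Rrm2, a subunit of ribonucleotide reductase, at 196 against 14.6, Stmn1 at 555 against 48.4, Top2a at 138 against 17.1 and 2810417H13Rik at 284 against 17.1. Of the 62 cells, 9 (14.5%) held 2 or more UMIs of Mki67, Top2a and Birc5, against 10 of the 777 (1.29%). Without those cycling cells the log2 ratio of Hist1h2ap was 1.43 in place of 4.29, that of Stmn1 2.02 in place of 3.52, that of Rrm2 0.021 (-5.38 to 2.74) in place of 3.74 and that of Top2a -0.93 (-6.28 to 1.67) in place of 3.01. Those of Lgals1 (2.15), Zeb2 (2.79) and Cx3cr1 (2.80) were at least as large without them.

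On the lower side were adaptors of NK receptors and several chemokine genes. Of 8 chemokine and cytokine genes, 5 were at least 2-fold lower and 1, Ccl9, at least 2-fold higher. Ccl4 was at 1626 CPM against 5100 (log2 ratio -1.65) and Ccl3 at 375 against 923 (-1.30). Tyrobp, the signalling adaptor of activating NK receptors, was at 425 CPM (347 to 516) against 1806 (log2 ratio -2.09, -2.38 to -1.80), and Fcer1g, another adaptor, at 480 against 2036 (-2.09). Cd7 was at 730 CPM against 3477 (-2.25), Xcl1 at 429 against 2728 (-2.67) and Klra5 at 20.8 against 323 (-3.96). Gpr18 (-2.33), Osgin1 (-3.30), Zfp512 (-3.05, -5.33 to -1.48, from 3 UMIs in the 62 cells), Atf3 (-2.78), Cited4 (-2.34), Rhob (-2.14) and Litaf (-2.08) completed the set. Of 12 tissue residence genes, 0 were at least 2-fold higher and 7 at least 2-fold lower, with a median of -1.29. Of 17 egress and circulation genes, 4 were higher and 1 lower, with a median of 0.59, while the median of all genes was -0.035. Of 12 other NK receptors and adaptors, 6 were lower and 1, Ly6c2, higher. Of 16 immediate-early and heat shock genes, 6 were lower and 0 higher.

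The same differences were visible cell by cell at equal depth. In cells thinned to 1500 UMIs, the median cell of the 62 held 95 UMIs of Ccl5, 22 of Gzma, 7 of Lgals1 and 0 of Tyrobp. The median cell of the 777 held 36, 2, 1 and 2. The median other cell within limits held 20, 0, 1 and 1. The lower quartile of the 62 cells was 64 UMIs of Ccl5, above the upper quartile of 53 in the 777 cells, whereas the full ranges overlapped for each of these genes.

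**Figure D4:**
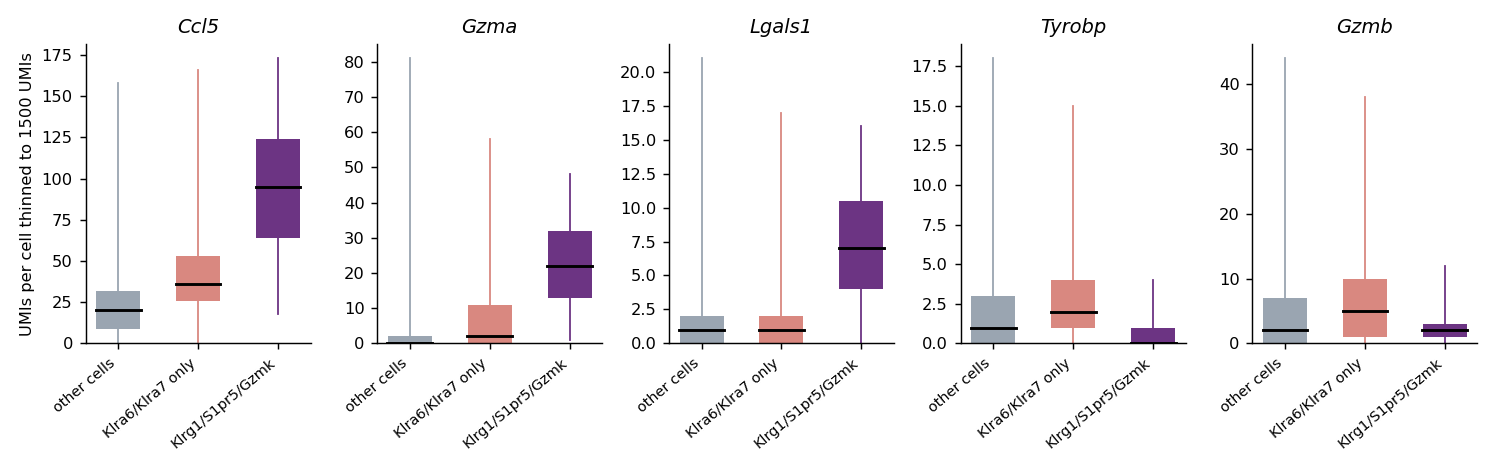
UMIs per cell after thinning to 1500 UMIs, for other liver cells within both limits (grey), members chosen on Klra6 and Klra7 alone (pink) and members with 3 or more Klrg1, S1pr5 and Gzmk UMIs (purple). Boxes span the quartiles, black lines are medians and thin lines the full range. For Ccl5 the medians were 20, 36 and 95, and for Gzmb 2, 5 and 2.

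The coreceptor gene Cd8b1, a marker of αβ T cells of the CD8 lineage, was found in part of these cells. A Cd8b1 UMI was present in 6 of the 62 cells (9.68%), 5 of which held Gzmk, against 3 of the 777 (0.386%) and 1.97% of other cells within limits. Of these 6 cells, 4 were among the 21 that did not meet the Klra limit, and 2 met it. Gzmk was detected in 24 of the 62 cells, and 17 of these were among the same 21. Over all members, 8 of the 50 cells with Gzmk held S1pr5, against 45 of the 107 with Klrg1. Cd8b1 was at 108 CPM in the 62 cells and 2.44 in the 777. Cd8a was at 75.05 against 238 CPM, with 55.6% of its UMIs in the 62 cells in a single cell, and at 36.1 against 237 without the Cd8b1 cells. Cd4 was at 0 UMIs in all members. Receptor chain genes were not analysed here. Without the Cd8b1 cells the log2 ratios between the 62 and the 777 cells were 1.72 for Gzma, 2.04 for Lgals1 and 2.65 for Zeb2. Hist1h2ap was then at 619 CPM in place of 1101, Mt1 at 139 in place of 204 and Lgals3 at 242 in place of 317 in the 62 cells.

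Members were also described by which of Klra6 and Klra7 they held. Klra7 without Klra6 was detected in 430 members, both in 361, Klra6 alone in 36 and neither in 19. The 361 cells also held more Klra7, a median of 6 UMIs against 4 in the 430, and levels differed with the Klra6 and Klra7 sum as well, Zeb2 being at 26.6 CPM at a sum of 3 to 5, 77.1 at 6 to 11 and 179 at 12 and above. Klra6 use and the Klra7 level were not separated. In the 361 cells with both, Zeb2 was at 124 CPM (105 to 146) against 30.6 (21.9 to 41.7) in the 430 with Klra7 alone, Cx3cr1 at 61.6 (48.4 to 77.4) against 7.65 (3.67 to 14.1), Lgals1 at 2146 against 989 and Ccl5 at 36112 against 24465. Klra5 went the other way, at 168 CPM against 432, as did Tyrobp at 1267 against 2164 and Gzmb at 3063 against 4617. The 36 cells with Klra6 alone had Zeb2 at 23.1 CPM (4.76 to 67.5), from 3 UMIs. The 19 members with neither gene had Gzma at 10199 CPM, Ly6c2 at 2177 and Tyrobp at 137.

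Members chosen on Klra6 and Klra7 alone were next set beside the liver cells rich in Tyrobp and Gzmb transcripts. Of the members, 66.7% (63.4 to 69.8) held 3 or more Tyrobp and Gzmb UMIs and none of Cd28 and Socs2, against 37.6% (36.4 to 38.8) of other cells within limits. Set beside the 2327 non-member cells that met this definition, 44 of 7808 genes (0.564%) were at least 2-fold higher in the 777 cells and 46 (0.589%) at least 2-fold lower. Cd28 and Socs2 were at 0 in the 2327 cells by definition. Both are counted among the 44 higher genes and are no finding. Zeb2 was at 53.3 CPM against 4.63, Cx3cr1 at 24.4 against 1.39, Ccl9 at 50.03 against 2.62, Klra1 at 194 against 63.0 and Ly6c2 at 282 against 119. For Ly6c2 the direction depended on the cells compared, since it was at 437 CPM in the 5439 cells within limits without a Klra6 or Klra7 UMI. Of the 777 cells, 67.4% met the definition of the 2327 cells themselves.

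The remaining differences between these groups were smaller. Ifi27l2a was at 142 CPM against 75.4, Itga4 at 127 against 69.5 and Ikzf2 at 168 against 101. On the lower side, Klra5 was at 323 CPM against 571, Klra9 at 251 against 386, Klrc1 at 461 against 728, Cd8a at 238 against 403 and Asb2 at 66.3 against 123. Of 19 cytotoxic granule genes 0 passed 2-fold, and Gzma itself was at 4820 CPM against 4106. When Tyrobp cells were taken whatever their Cd28 and Socs2, 4060 cells, the counts were 53 higher and 140 lower of 8655 genes.

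Across the liver classes, Cx3cr1 and Zeb2 were highest in members. Cx3cr1 was at 32.7 CPM in members, 15.9 in the 181 Tcf7 Lef1 cells, from 8 UMIs in 2 cells, 1.59 in the 878 Cd28 Socs2 cells and 0.976 in the 930 IL-17-program cells. Zeb2 was at 75.8, 17.9, 2.78 and 8.13 CPM in the same order. Ccl5 was at 29955 CPM in members, 5885 in Tcf7 Lef1 cells, 6803 in Cd28 Socs2 cells and 3572 in IL-17-program cells. The 2327 cells rich in Tyrobp and Gzmb transcripts, the largest class, are not in that list. The listed classes therefore overstate how far members stood from other liver cells in Ccl5. It was at 13545 CPM in the 5291 cells within both upper limits with a marker sum of 0. Lgals1 did not follow the order of Ccl5, at 1629 CPM in members and 3071 in IL-17-program cells.

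Levels were also followed over the marker sum from 0 to 6 and above. Ccl5 was at 13545 CPM in the 5291 cells with a sum of 0, 21663 at a sum of 3 and 35626 in the 444 cells at 6 and above. Gzma was at 2008, 4742 and 6902 CPM, with 3881 at a sum of 4 to 5. Zeb2 was at 3.09 CPM (2.27 to 4.11) at 0, 17.6 at 3, 28.0 at 4 to 5 and 119 (102 to 137) at 6 and above. Cx3cr1 was at 1.51 CPM at 0, 10.2 at 2 (from 8 UMIs), 5.85 at 3 (from 3 UMIs) and 54.3 at 6 and above. Lgals1 was at 722, 948, 886 and 2244 CPM at the same sums. Both were thus lower at a sum of 3 than at 2. For these genes the step to the cells with the highest sums was larger than the step at the limit of 3.

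Other genes followed other courses over the same sum. Gzmb was highest in the middle, at 2835 CPM at 0, 4760 at 3 and 3453 at 6 and above. Il7r was at 106 CPM at 0, 71.7 at 1, 42.9 at 3 and 30.2 at 6 and above. Cd27 was at 261, 281 and 160 CPM at 0, 3 and 6 and above, and Cd69 at 438, 443 and 366. Cxcr6 had no steady course, at 492 CPM at 0, 329 at 2, 433 at 3 and 310 at 6 and above, and thinned it was lower at 4 to 5 (322) than at 6 and above (346). Thinned to 1500 UMIs, cells at 6 and above had 47737 CPM of Ccl5, 103 of Cx3cr1 and 230 of Zeb2, in 162 cells in place of 444.

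**Figure D5:**
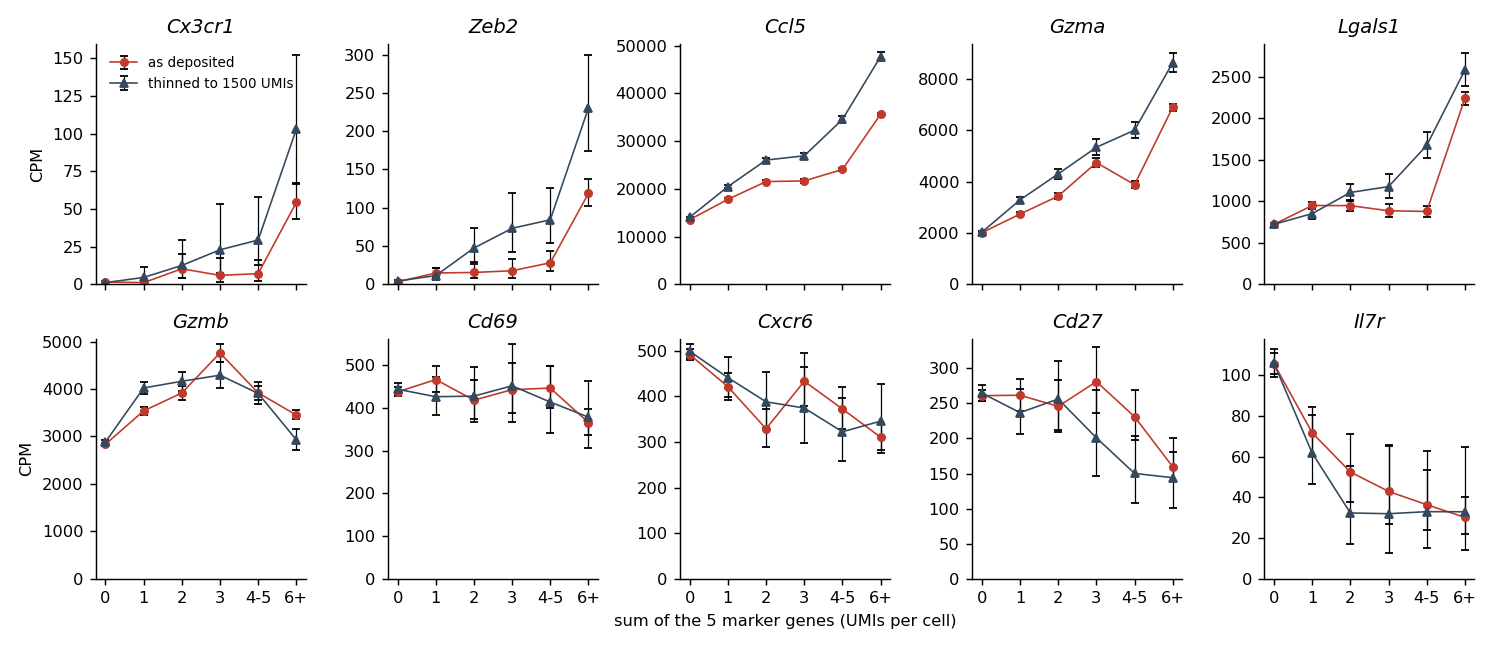
Summed levels (CPM, 95% counting intervals) of 10 genes outside the rule by the marker sum, for kept liver cells within both upper limits as deposited (circles) and thinned to 1500 UMIs (triangles). Ccl5, Gzma, Lgals1, Cx3cr1 and Zeb2 peak at 6 and above, where Zeb2 reached 119 CPM as deposited, Gzmb peaks at 3 and Il7r is highest at 0.

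Members held T cell transcripts. At least 3 UMIs of Cd3d, Cd3e, Cd3g and Cd247 were present in 841 members (99.4%), and 1 member had none. Markers of other cells were low. The 8 B cell genes summed to 28.7 CPM in members and 38.5 in other kept cells, with Ms4a1 and Pax5 at 0. The 8 hepatocyte genes summed to 16.6 CPM against 27.7, the 6 erythroid genes to 18.8 against 30.4 and the 7 platelet and endothelial genes to 5.89 against 17.9. The 12 myeloid genes outside the rule summed to 193 CPM in members, 267 in the 62 Klrg1, S1pr5 and Gzmk cells and 346 in other kept cells, with Vsig4, Fcna and S100a8 at 0 in members. The 10 NK and innate lymphoid genes summed to 8319 CPM in members, 3711 in the 62 cells and 5555 in others, and a CD3e and TCRγ/δ gate preceded the library. Their part in the results was not tested.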

How the data were processed

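The authors aligned the reads to mm10 with Cell Ranger, per the labels, and deposited unnormalized counts of UMIs for each gene and barcode. Their notes name Seurat 3.0 for later steps. The filters on genes and mitochondrial UMIs follow the study's methods, whose limit on ribosomal UMIs was tried as an alternative. The study states fewer liver cells after its filter than the 8075 these limits keep, for a reason not found here, so shares of kept cells may differ from shares of its cells. The members and gene lists were chosen with earlier results of these data known. Counts were summed over cells (Python 3.11.15, numpy 2.4.6, scipy 1.17.1) and given as CPM with exact Poisson limits, ratios with exact conditional binomial limits and shares with exact binomial limits, all at 95% and for counting error only. Genes with 50 or more UMIs over both groups, without mitochondrial, ribosomal protein and rule genes, formed the background, and past the fold means 2-fold. Named genes were Cx3cr1, Zeb2, 2 to 6 of each list and the 12 largest differences in each direction at 100 CPM or more, a rule extended to the comparisons between kinds of member and with Tyrobp cells after their values were seen. Alternatives changed the rule's limits, depth, doublets, averaging, denominator and minimum counts. Several genes that this rule named, Apoe, Sepp1 and Cd74 among them, were left out of the text. Gene positions are from GENCODE for GRCm38 (mm10). The ratio calculation was tested on simulated counts and the thinning on the liver counts themselves. No cell was removed as a doublet, since Scrublet (scanpy 1.11.5) at an expected rate of 5% marked 1 of 8075 cells. Among the 639 cells with the highest scores were 70 members (8.27%), 2 of the 62 with Klrg1, S1pr5 and Gzmk, and 569 other cells (7.87%). Kept liver cells held 1328 to 17429 UMIs.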

Additional observations from a re-analysis of the deposited data

Results flagged for a closer look

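In the thymus library, depleted of CD4+ and CD8+ cells before the same sort and used in no comparison above, 15 of 4351 kept cells met the same rule, 0.345% (exact binomial 95% interval 0.193 to 0.568). They came up because the signal lies in a library outside the main measurement. A Klra7 UMI was present in 13 of the 15 and a Klra6 UMI in 6, while Klrg1, S1pr5, Gzmk and Zeb2 were at 0 UMIs, which with 71202 UMIs in all allows up to 51.8 CPM of each. Ccl5 was at 4241 CPM and Gzma at 857 CPM in these 15 cells. Over all kept thymus cells Klra7 was at 4.04 CPM and S1pr5 at 0. Zeb2, at 18.8 CPM, lay in 269 of those cells and Cx3cr1, at 17.6 CPM, in 242.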

How the results depend on the processing

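No paired analysis was possible because each organ had 1 library and no replicate. The number of members was 846, and it was 534 with a marker sum of at least 5 and 494 with the rule applied to cells thinned to 1500 UMIs. The 62 members with 3 or more Klrg1, S1pr5 and Gzmk UMIs became 14 under that thinning. The 104 genes at least 2-fold higher became 165 with a sum of at least 5, 173 with the thinned rule, 220 with 20 or more UMIs per gene and 33 with 200 or more. The 569 lower genes became 162 with 200 or more UMIs per gene and 286 against cells within the upper limits. The share of members with a Cx3cr1 UMI was 4.37% at 1500 UMIs per cell and 3.07% at 1000, and that with a Zeb2 UMI 8.75% and 5.67%. Against cells within the limits, a setting added once the data had been seen, as were the next ones, the log2 ratio turned for Cxcl2 (0.083), Ccl6 (0.62), Capg (0.40) and Cd68 (0.086), and without cycling cells for Cdca8 (-0.0395) and, between the 2 kinds of member, Top2a (-0.93). The cause of these moves was not tested, beyond what each setting leaves out. The 300 genes followed gave 4161 pairs of a gene and an alternative. A turn of direction was counted only for the 85 genes past 2-fold, and 5 of their 1163 pairs turned. A gene with few UMIs cannot be placed at this depth, and 1 liver library cannot show how these levels vary between mice.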
